A study of Brachypodium distachyon with 24 samples.

Results

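Leaves of F1 hybrids of the model grass Brachypodium distachyon were compared between drought and control. The hybrids came from crosses in which pollen of the accession Bd21 was placed on Bd3-1, so that every plant described here carried 1 genome copy of each accession. The F1 libraries were taken by their sample labels, 5 from drought plants and 5 from control plants, 10 of the 24 libraries of the series. The other 14 libraries came from the accessions themselves (6 from Bd21 and 8 from Bd3-1). Dry-down began 33 days after sowing and lasted 6 days, during which control soil was held at 85% of field capacity and drought soil was brought to 55%. The youngest fully expanded leaves were harvested around midday, and stranded poly(A) RNA libraries were sequenced. The hybrids were dried down in an experiment separate from that of most accession plants, so hybrid and experiment cannot be told apart in any comparison with the accessions. For each gene, the count of the Bd21 allele and the count of the Bd3-1 allele were added within each library, and levels are given as CPM (normalized counts for each 1000000 counts of a library, scaled by TMM factors).

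When soil dries, plants accumulate abscisic acid (ABA), a hormone made from carotenoids in a pathway whose committed step is catalysed by 9-cis-epoxycarotenoid dioxygenases (NCED). Through its receptors, ABA blocks type 2C protein phosphatases, negative regulators of its own signalling, which releases kinases that close stomata and activate bZIP transcription factors. Among the downstream products are dehydrins and other LEA proteins, hydrophilic proteins associated with protection of dehydrating cells, while genes of photosynthesis and growth are commonly lower in dry leaves.

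Total counts lay between 18043266 and 38713326 in control and between 10607196 and 32075566 in drought. No pair of replicates agreed within sampling noise (20 pairs, lowest chi-square divided by its degrees of freedom 21.5), so each library was counted once. The chlorophyll a-b binding protein gene Bradi4g31257, used as a leaf marker, was detected in all 10 libraries. The 10 most abundant genes of each library took 10.56% to 16.3% of its counts in control and 7.48% to 10.47% in drought. The groups were separated by a narrow margin (exact two-sided permutation test, p = 0.00794, the smallest that 5 against 5 allow). With the same 10 genes in every library, the shares were 10.16% to 13.4% in control and 6.31% to 10.40% in drought. Those ranges overlapped (exact two-sided permutation test, p = 0.0159). TMM factors, which correct for such differences in composition, were 0.707 to 1.05 in control and 0.996 to 1.21 in drought. Pearson correlations of log2 CPM across genes, which are not independent replicates, ranged from 0.864 to 0.941 between control plants, from 0.845 to 0.968 between drought plants, and from 0.791 to 0.930 between groups.

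Drought changed 2528 of 22629 genes tested (11.2%) in F1 leaves at an adjusted p under 0.05 (edgeR's quasi-likelihood test, Benjamini-Hochberg adjustment over all genes tested). Of these, 1274 rose (5.63%) and 1254 fell (5.54%). The median log2 difference was 1.16 among genes that rose and -1.15 among genes that fell, beside 0.03 over all genes tested. More than 2-fold changes (over 1 on the log2 scale) were found for 820 genes that rose and 768 that fell, and changes over 3 on the log2 scale for 127 and 79. In 868 genes that rose and 785 that fell, the drought plants did not overlap with the control plants. Of all genes tested, these included, 10.4% had no overlap (5.24% higher and 5.2% lower in drought). The same plants chose the called genes, so the separation describes the calls and does not test them. Genes that rose made up between 4.47% (chromosome 4) and 6.2% (chromosome 2) of the genes tested on a chromosome, and genes that fell between 4.77% (chromosome 4) and 6.38% (chromosome 5). The number of calls rested on single plants. It was 1462, 1392 or 1240 without control replicate 1, 3 or 5 and 1251 or 1017 without drought replicate 1 or 2, and 945 genes passed in each of the 10 fits that left out 1 library. All 2528 kept their direction in those fits. With total counts alone as the scale, the median of all genes moved to 0.36, and 79.05% of calls were rises (2389 against 633), compared with 50.4% under TMM.

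All 7 genes named by the study for ABA synthesis and signalling rose in drought, where 5.63% of all genes tested rose, with a median log2 difference of 3.17. The study named these genes from a co-expression module of droughted Bd21 plants. It reports most members of that module as drought-responsive in the accessions, so the list was not chosen without regard to drought. NCED2, the ortholog of an ABA synthesis enzyme, and ATHB-7, the ortholog of an ABA-responsive homeobox transcription factor, were near background or low in control plants and rose by more than 4 on the log2 scale. The orthologs of the phosphatases HAB1 and HAB2, which repress ABA signalling in Arabidopsis, rose as well.

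The NCED2 ortholog Bradi1g13760 had 0.913, 2.28, 0.733, 8.97 and 0 CPM in control replicates 1 to 5. In drought replicates 1 to 5 it had 94.1, 108, 106, 152 and 55.4 CPM. The lowest drought plant thus lay above the highest control plant, and the log2 difference was 5.34 (standard error 0.87, adjusted p = 0.00358). CYP707A1 catalyses the opposite step, hydroxylation of ABA at the 8' position, which inactivates the hormone. Its ortholog Bradi3g52660 was at 122 ± 21.5 CPM in control and 238 ± 63.4 in drought (SD, n = 5 each), a log2 difference of 0.96 (standard error 0.21, adjusted p = 0.0141). Its groups overlapped, with drought replicate 4 at 152 CPM below control replicate 4 at 159.

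ATHB-7 had the smallest adjusted p of the ABA genes. Its ortholog Bradi3g50220 had 15.6, 35.2, 14.8, 15.0 and 15.0 CPM in the control plants and 331, 437, 380, 277 and 346 CPM in the drought plants. Every drought plant was far above every control plant (log2 difference 4.21, standard error 0.29, adjusted p = 2.49e-05). The AITR3 ortholog Bradi4g39520, a transcriptional repressor in ABA signalling, went from 1.35, 15.9, 3.89, 8.52 and 1.499 CPM to 101, 114, 86.99, 69.096 and 104 CPM. Control replicates 2 and 4 were the highest of the control plants for this gene, and the log2 difference was 3.93 (standard error 0.60, adjusted p = 0.00243). The GBF2 ortholog Bradi2g15940, a bZIP transcription factor, was at 1.07 ± 0.595 CPM in control and 9.65 ± 2.82 in drought (SD, n = 5 each), a log2 difference of 3.17 (standard error 0.49, adjusted p = 0.00262).

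Both phosphatase genes were separated between the groups. The HAB1 ortholog Bradi2g18510 had 12.5, 31.6, 14.8, 20.2 and 14.8 CPM in control and 120, 148, 129, 140 and 116 CPM in drought. The log2 difference was 2.80 (standard error 0.24, adjusted p = 8.35e-05). The HAB2 ortholog Bradi2g41950 had 15.7, 58.4, 25.9, 43.2 and 16.7 CPM in control and 143, 160, 133, 146 and 172 CPM in drought (log2 difference 2.24, standard error 0.33, adjusted p = 0.0022). Control replicates 2 and 4 again had more of both transcripts than the other control plants. Summed over the 7 genes, the ABA list was at 157, 266, 167, 257 and 163 CPM in control replicates 1 to 5 and at 1078, 1277, 1032, 944 and 1073 CPM in drought replicates 1 to 5. All 7 genes passed the test in each of the 10 fits without 1 library.

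**Figure D1:**
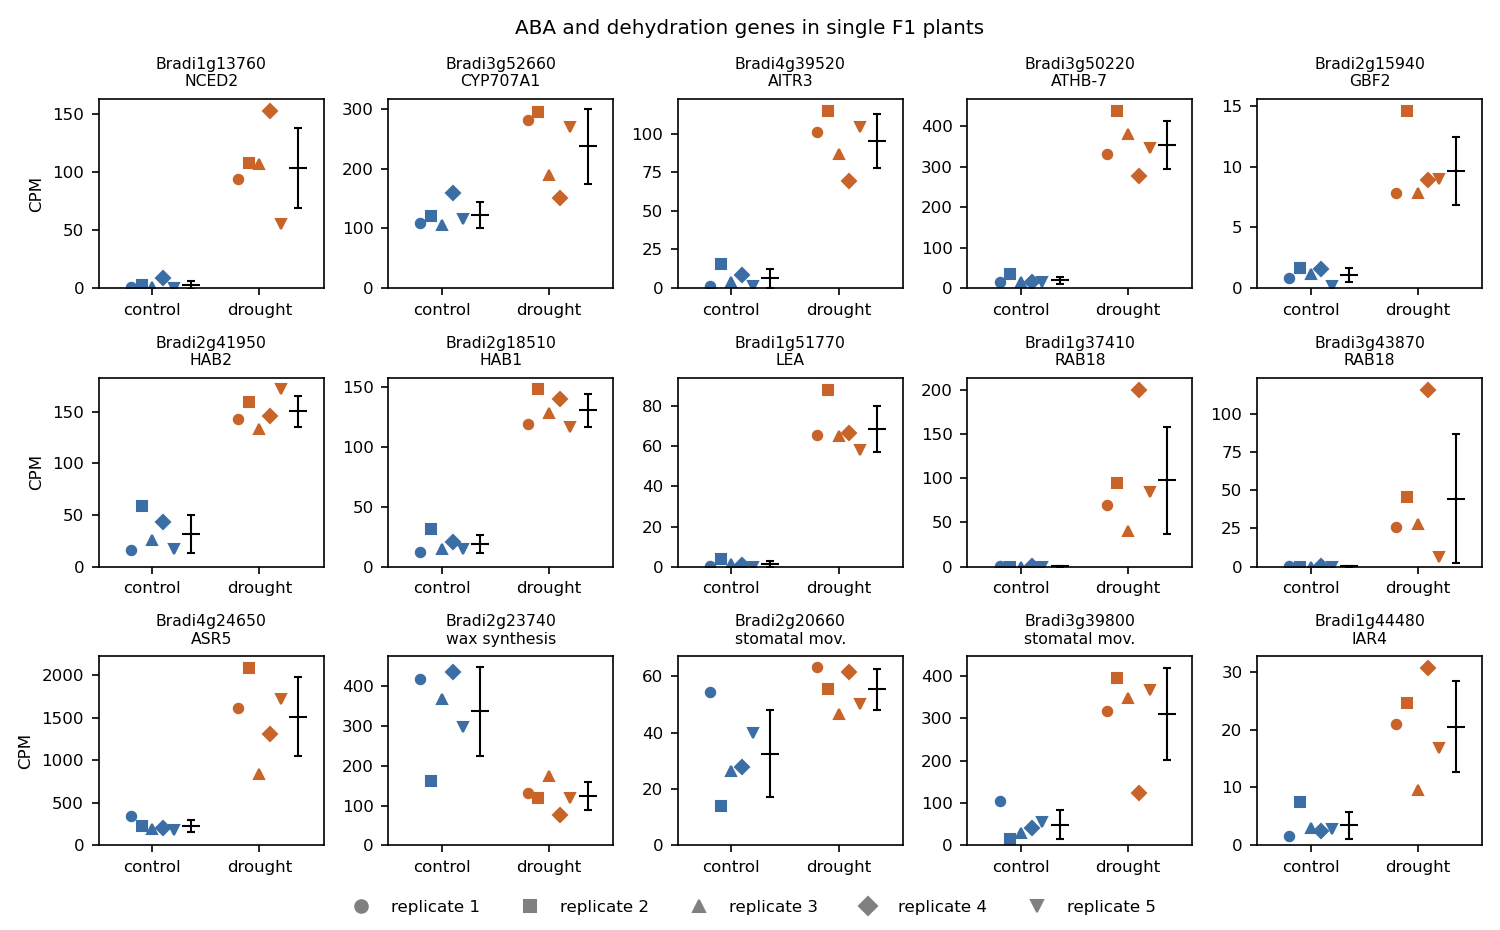
Level of the 7 ABA genes and the 8 genes of dehydration protection and water loss in single F1 plants (y axis: CPM, from 0; x axis: control in blue, drought in orange; marker shape: replicate; black: mean and SD, n = 5, cut at 0). Control and drought plants did not overlap in 12 of the 15 genes, beside 10.4% of all genes tested, and the wax gene Bradi2g23740 was lower in drought.

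The largest rises among named genes with counts in both groups were those of 2 dehydrin genes. Over all genes tested, 5.63% rose and 5.54% fell. Of 8 genes for dehydration protection and water loss, 6 rose (75%), 1 fell (12.5%) and 1 did not pass the test. The study named these 8 genes from the module of the ABA genes and from another module of droughted Bd21 plants. It reports most members of both modules as drought-responsive in the accessions. The rises included both RAB18 orthologs, which encode dehydrins, a LEA gene and the ortholog of rice ASR5, a gene of the ABA, stress and ripening family. The exception was a gene of wax synthesis, which fell.

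The LEA gene Bradi1g51770 had 0.219, 3.98, 1.13, 0.795 and 0 CPM in control and 65.5, 88.06, 65.2, 66.8 and 58.0 CPM in drought. It was uniformly high in drought, with a log2 difference of 5.79 (standard error 0.77, adjusted p = 0.0011). The RAB18 ortholog Bradi1g37410 had 0.365, 0, 0, 0.341 and 0 CPM in control, 16 counts over the 5 libraries, and 69.8, 94.98, 40.7, 199.7 and 83.9 CPM in drought. The log2 difference was 9.33 (standard error 0.76, adjusted p = 5.6e-05). The other RAB18 ortholog, Bradi3g43870, had 20 counts over the control libraries and 26.1, 45.8, 27.8, 116 and 6.50 CPM in drought (log2 difference 7.83, standard error 0.97, adjusted p = 0.000656). Drought replicate 4 was the highest plant for both dehydrins.

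The ASR5 ortholog Bradi4g24650 was well expressed in both groups, at 345, 231, 190, 200.1 and 174 CPM in control and 1618, 2088, 838, 1311 and 1723 CPM in drought. Drought replicate 3 had the smallest rise (log2 difference over all plants 2.73, standard error 0.28, adjusted p = 0.000237). The IAR4 ortholog Bradi1g44480 rose from 3.43 ± 2.29 to 20.5 ± 7.91 CPM (SD, n = 5 each; adjusted p = 0.00406). Of the genes annotated to stomatal movement, Bradi3g39800 rose from 49.0 ± 34.1 to 310 ± 108 CPM (adjusted p = 0.00535). Bradi2g20660 was at 32.5 ± 15.4 CPM in control and 55.4 ± 7.25 in drought, with a log2 difference of 0.77 that did not pass (standard error 0.29, adjusted p = 0.104).

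The wax synthesis gene Bradi2g23740 had 419, 162, 369, 435 and 299 CPM in control and 132, 118, 175, 75.6 and 119 CPM in drought. Control replicate 2 lay within the range of the drought plants, and the log2 difference was -1.44 (standard error 0.28, adjusted p = 0.00906).

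Modules of co-expressed genes that the study built on other libraries of the accessions gave lists that were not chosen on the F1 libraries. For the drought lists below, the study reports that most module members responded to drought in the accessions. In the list of modules found in both accessions under drought only, 12 of 13 genes rose (92.3%) and none fell. Of all genes tested, 5.63% rose and 5.54% fell. The median log2 difference of the 13 genes was 2.97. The member that did not pass had a log2 difference of 1.82. Between 8 and 12 of the 13 passed without 1 library, the lowest without drought replicate 2. In the Bd21 drought module, which holds the named ABA genes and of which 48 genes were available, 32 rose (66.7%) and 2 fell (4.17%). The median was 2.06. Of these 48 genes, 13 are also in the lists named in the text of the study, as are 2 of the 13. The summed level of the drought-only list was 80.4, 60.5, 32.5, 36.4 and 35.2 CPM in control and 504, 631, 288, 686 and 464 CPM in drought.

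**Figure D2:**
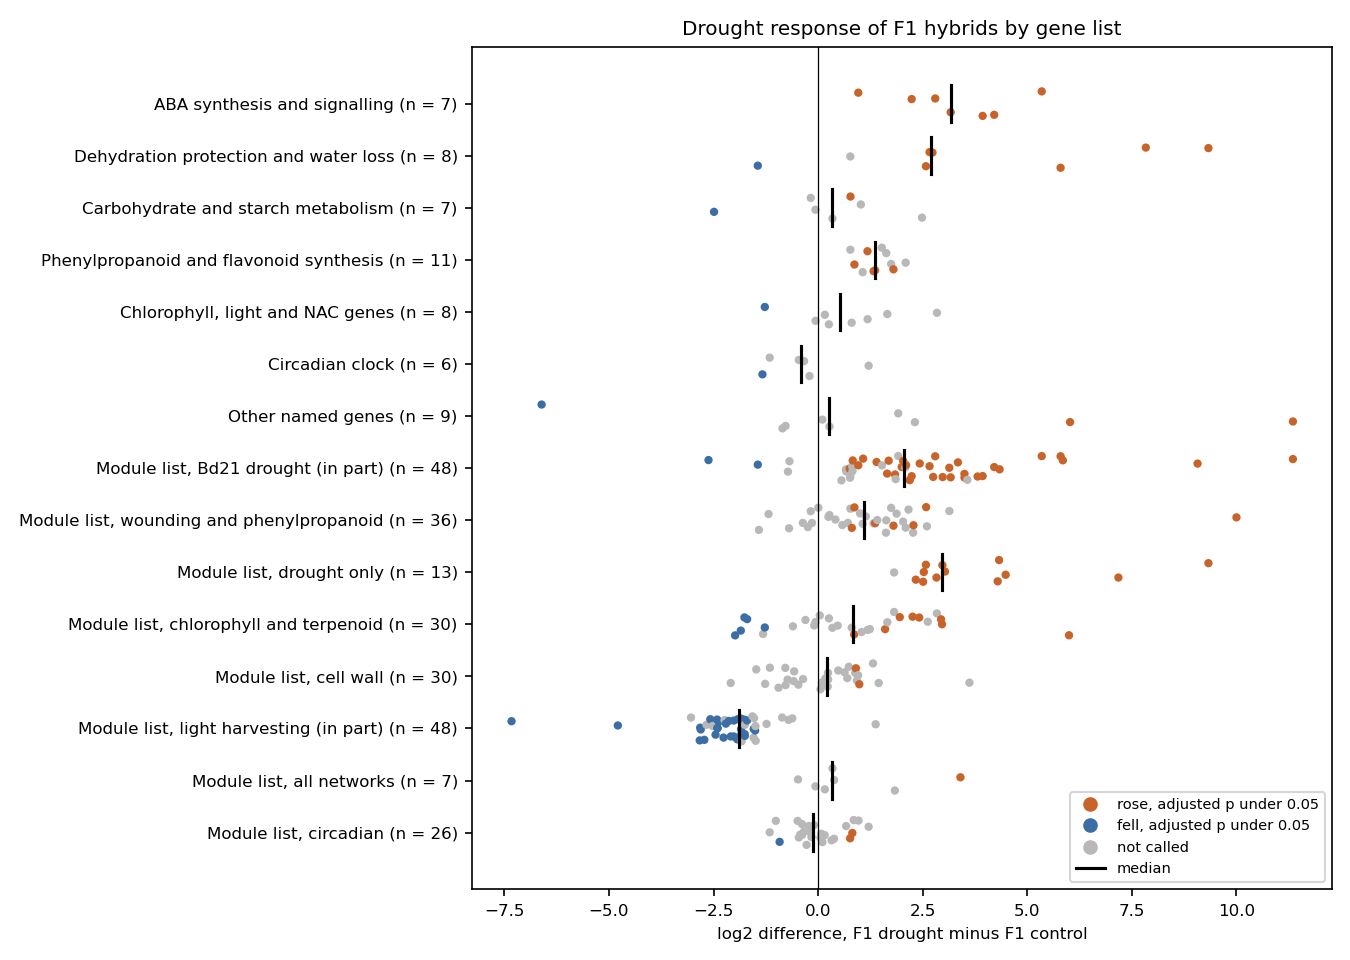
Log2 difference between F1 drought and control (x axis) of each tested member of 15 gene lists (rows, n genes each); orange points rose, blue points fell and grey points did not pass the test, and black bars are medians. The member of the highest x value is drawn at 11.35, set against an assumed floor of 3 counts in control. The medians of the ABA, dehydration and drought module lists lie to the right of 0 and that of the light harvesting genes to the left. Single members of the dehydration, Bd21 drought and light harvesting lists lie on the other side.

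Genes of the light reactions of photosynthesis were lower in drought. In the light harvesting modules, 32 of 48 available genes fell (66.7%, beside 5.54% of all genes tested) and none rose, and 47 of the 48 had a log2 difference below 0 (median -1.90, beside 0.03 over all genes). The study reports these modules as enriched for drought-responsive genes in the accessions. In 5 of the 48 genes, all drought plants lay below all control plants, beside 5.2% of all genes tested. Summed over the list, control replicates 1 to 5 had 196509, 41890, 91333, 60236 and 125821 CPM, and drought replicates 1 to 5 had 22076, 16566, 63889, 11108 and 33351 CPM. The groups overlapped, since drought replicate 3 lay above control replicates 2 and 4. How many members passed depended on the plants. Without drought replicate 3, 45 of the 48 fell. Without control replicate 1, 3 or 5 or drought replicate 1, 2, 4 or 5, between 6 and 15 fell. With total counts alone as the scale, which leaves differences in composition uncorrected and put the median of all genes at 0.36, 32 of the 48 fell and the median was -1.54. In bulk leaf RNA, fewer cells of a type and less RNA per cell cannot be told apart.

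The chlorophyll a-b binding protein gene Bradi4g31257, whose product holds chlorophyll in the antennae, had 218, 94.8, 115, 96.7 and 116 CPM in control and 60.7, 46.3, 63.6, 34.0 and 59.8 CPM in drought. All control plants were above all drought plants (log2 difference -1.27, standard error 0.25, adjusted p = 0.0104). The other 7 genes named with it for chlorophyll, light and NAC transcription factors did not pass. The stay-green gene Bradi4g36060, whose relatives in other plants act in chlorophyll breakdown during senescence, had 1.68, 46.7, 23.5, 56.4 and 8.48 CPM in control and 82.6, 89.6, 29.6, 139 and 89.4 CPM in drought (log2 difference 1.65, standard error 0.68, adjusted p = 0.141). Here drought replicate 3 lay within the control range, and control replicates 2 and 4 were the highest control plants. The NAC gene Bradi4g44000 had a log2 difference of 2.84 (standard error 0.92, adjusted p = 0.0659), with 0.0731 to 5.62 CPM in control and 1.17 to 23.7 in drought. The ELIP2 ortholog Bradi1g55600, an early light-induced protein gene, was at 15.1 ± 10.04 CPM in control and 16.8 ± 11.3 in drought (SD, n = 5 each). In the chlorophyll and terpenoid modules, 8 of 30 genes rose (26.7%, beside 5.63% of all genes tested) and 5 fell (16.7%, beside 5.54%). The median was 0.83. Without control replicate 3 or 5 or drought replicate 1 or 2, 4 rose and 2 fell, and without control replicate 1, 6 rose and 2 fell.

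Phenylpropanoid and flavonoid genes rose in part, and 1 drought plant stood apart. These enzymes convert phenylalanine, by way of phenylalanine ammonia-lyase (PAL), cinnamate 4-hydroxylase (C4H) and 4-coumarate:CoA ligase, into precursors of lignin and flavonoids. Of 11 named genes, 5 rose (45.5%, beside 5.63% of all genes tested) and none fell, and all 11 log2 differences were above 0 (median 1.36). Without drought replicate 4, 4 rose, the median was 0.79 and the log2 difference of the F3H gene Bradi5g19250 went from 2.09 (adjusted p = 0.523) to -0.97. Summed over the list, control plants lay between 149 and 233 CPM. Drought replicates 1 to 5 had 426, 402, 218, 1001 and 311 CPM, so replicate 4 was more than 2 times the next plant and replicate 3 lay within the control range.

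Entry enzymes of the pathway varied widely between drought plants. The PAL gene Bradi5g15830 had 12.7 to 25.1 CPM in control and 33.7, 26.1, 12.7, 186 and 19.2 CPM in drought, and its log2 difference of 1.63 did not pass (standard error 0.62, adjusted p = 0.113). Without drought replicate 4 it was 0.35, and the adjusted p ranged from 0.033 to 0.526 over the alternatives. The C4H gene Bradi2g31510 had 27.9 to 34.4 CPM in control and 58.3, 55.4, 35.3, 86.2 and 27.6 CPM in drought (log2 difference 0.77, standard error 0.26, adjusted p = 0.0726). Without drought replicate 4 the log2 difference of C4H was 0.51. The 4-coumarate:CoA ligase gene Bradi3g52350 had 38.9, 44.4, 46.2, 44.9 and 27.7 CPM in control and 76.7, 66.9, 38.7, 103 and 83.6 CPM in drought (log2 difference 0.87, standard error 0.24, adjusted p = 0.0348). It no longer passed without control replicate 1, 3 or 5 or drought replicate 1, 2, 4 or 5 (adjusted p up to 0.0858), nor in the fit over all 24 libraries (adjusted p = 0.0986).

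Of 5 named flavonoid hydroxylase genes, 2 passed, beside 11.2% of all genes tested. The flavanone 2-hydroxylase gene Bradi2g48450 had 21.2, 31.2, 17.5, 31.8 and 15.6 CPM in control and 66.4, 59.8, 35.3, 55.5 and 48.8 CPM in drought, with all drought plants above all control plants (log2 difference 1.18, standard error 0.24, adjusted p = 0.011). The flavonoid 3'-hydroxylase gene Bradi3g04750 rose from 10.96 ± 3.60 to 27.5 ± 9.28 CPM (SD, n = 5 each; adjusted p = 0.0158). Another flavonoid 3'-hydroxylase gene, Bradi4g31380, had 18.8 to 36.7 CPM in control and 64.6, 63.1, 23.0, 248 and 25.6 CPM in drought. Its log2 difference was 1.74 (standard error 0.56, adjusted p = 0.0625). Without drought replicate 4 it was 0.79, and over the alternatives the adjusted p ranged from 0.00796 with DESeq2 to 0.168 without that plant. The F3H genes Bradi2g54090 (adjusted p = 0.730) and Bradi5g19250 had at most 10.4 CPM in any plant and did not pass. The PPO gene Bradi2g52260 had 12.6 to 19.3 CPM in control and 45.5, 41.8, 20.6, 136 and 37.7 CPM in drought (log2 difference 1.80, standard error 0.41, adjusted p = 0.017, and 1.16 without drought replicate 4). The R2R3 MYB transcription factor gene Bradi2g11676 rose from 20.4 ± 6.62 to 52.5 ± 32.0 CPM (SD, n = 5 each; log2 difference 1.36, adjusted p = 0.0231), and did not pass without control replicate 3 or 5 (adjusted p up to 0.065). Without drought replicate 4 its log2 difference was 0.90. In the wounding and phenylpropanoid modules, 7 of 36 tested genes rose (19.4%, beside 5.63% of all genes tested) and none fell (median 1.10). That count was 13 without drought replicate 3, 2 without control replicate 3 or 5 and 4 without drought replicate 1, 2 or 4. Without drought replicate 4, 1 gene fell and the median was 0.53. Of the 11 named genes, 9 passed without drought replicate 3 and 3 without control replicate 3 or 5.

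Of 7 named carbohydrate genes, 1 rose, 1 fell and 5 did not pass (14.3% in each direction, beside 5.63% and 5.54% of all genes tested). The median was 0.34, and it was 0.77 without control replicate 2, 0.22 without control replicate 1 and 0.21 without control replicate 5 or drought replicate 1. The 6-phosphogluconolactonase gene Bradi1g22050, an enzyme of the oxidative pentose phosphate pathway, had 116, 36.9, 81.4, 65.1 and 119 CPM in control and 11.9, 11.7, 29.9, 3.61 and 17.2 CPM in drought. All drought plants were below all control plants (log2 difference -2.49, standard error 0.47, adjusted p = 0.0077). The pyruvate kinase gene Bradi3g33930, of the last step of glycolysis, rose from 61.6 ± 9.08 to 105 ± 32.2 CPM (SD, n = 5 each; log2 difference 0.77, adjusted p = 0.0342). It lost its call without control replicate 1, 3, 4 or 5 or drought replicate 1, 2 or 4 (adjusted p up to 0.0864), and in the fit over all 24 libraries (adjusted p = 0.0607). The endoglucanase gene Bradi5g14580 had a log2 difference of 1.021 (standard error 0.39, adjusted p = 0.11). The galactosyltransferase gene Bradi2g56700 was at 0, 11.8, 0.62, 2.84 and 0 CPM in control and 24.03, 23.6, 8.73, 3.94 and 25.5 CPM in drought (log2 difference 2.48, standard error 1.13, adjusted p = 0.183). Without control replicate 2 it passed (log2 difference 4.37, adjusted p = 0.0253). The LESV ortholog Bradi4g15010, for starch metabolism, was at 175 ± 104 CPM in control and 221 ± 78.7 in drought. In the cell wall modules, 2 of 30 genes rose (6.67%, near the 5.63% of all genes tested) and none fell (median 0.20), whereas 5 rose without control replicate 1, 4 without control replicate 2 and 1 without control replicate 3 or 5 or drought replicate 1 or 2. Without drought replicate 3, 3 rose and 2 fell. The median was 0.33 without control replicate 1, 0.053 without control replicate 2 and 0.12 without drought replicate 1.

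**Figure D3:**
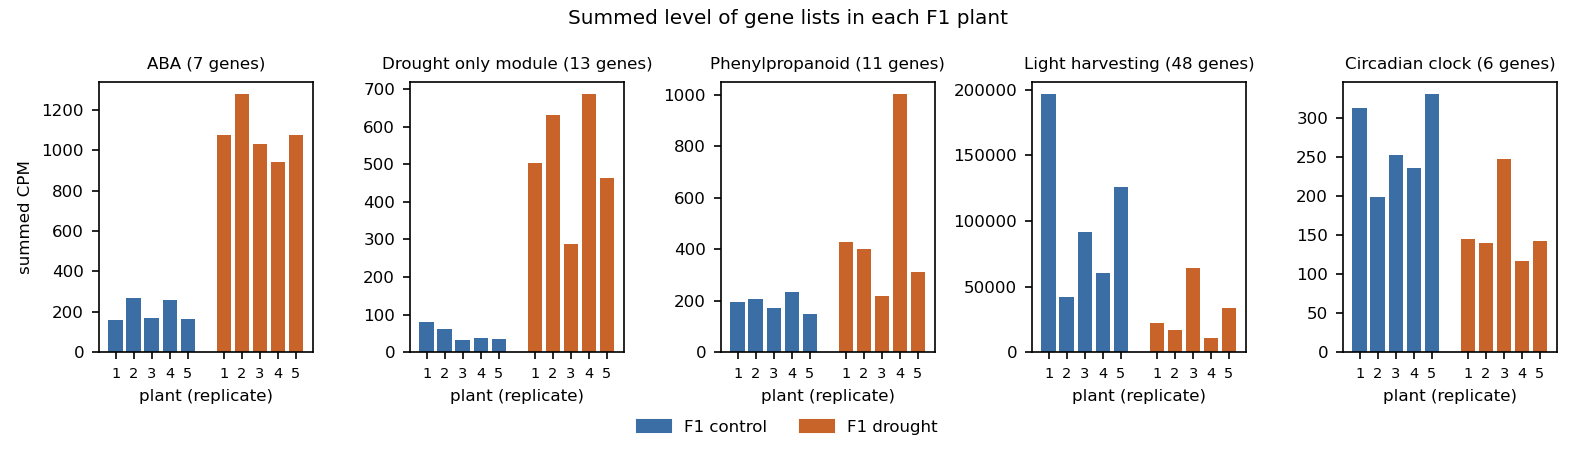
Summed CPM of 5 gene lists in each F1 plant (y axis, from 0; x axis: replicate; blue: control; orange: drought; panels have separate scales). The ABA sum of every drought plant exceeds that of every control plant, drought replicate 4 has the highest phenylpropanoid sum (1001 CPM), and the light harvesting sum of drought replicate 3 (63889 CPM) lies within the control range.

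Genes of the circadian clock were harvested at a single time of day, so a level here is a level around midday. Of 6 named clock genes, 1 fell, none rose and 5 did not pass, and of 26 genes of the circadian modules, 2 rose (7.69%) and 1 fell (3.85%), near the shares of all genes tested (5.63% and 5.54%). The medians were -0.40 and -0.13, and they became -0.07 and 0.17 with total counts as the scale, so no direction is given for the lists. LHY, with CCA1, encodes a MYB-like repressor of the morning phase. Its ortholog Bradi3g16515 had 38.7, 24.3, 24.5, 25.4 and 37.9 CPM in control and 8.78, 10.4, 35.8, 1.55 and 10.7 CPM in drought. In 4 drought plants it was below every control plant and in replicate 3 it lay within the control range (log2 difference -1.16, standard error 0.54, adjusted p = 0.201). Without drought replicate 3 it passed (log2 difference -1.94, adjusted p = 0.0125). The RVE6 ortholog Bradi3g51757, a relative of LHY, had 142, 54.7, 104, 83.5 and 147 CPM in control and 26.9, 25.3, 83.9, 27.1 and 48.0 CPM in drought (log2 difference -1.33, standard error 0.37, adjusted p = 0.0355). That call was lost without control replicate 1, 3 or 5 or drought replicate 1, 2, 4 or 5 (adjusted p up to 0.0918). The BOA and LUX ortholog Bradi2g62067 was at 78.8 ± 10.1 CPM in control and 57.1 ± 19.2 in drought (adjusted p = 0.215).

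Of the 9 other genes named by the study, 2 rose (22.2%) and 1 fell (11.1%), beside 5.63% and 5.54% of all genes tested. Bradi4g40850, of unknown function, had no count in any control plant and 74.2, 122, 11.4, 112 and 56.6 CPM in drought. Set against an assumed floor of 3 counts over the control group, its pooled drought level was 2609-fold higher (adjusted p = 0.000374). That fold leaves out the spread between plants and is not a strict lower bound. Bradi1g65130 had 24.9, 2.24, 20.4, 10.4 and 23.5 CPM in control and 0.33, 0.158, 0.177, 0 and 0 CPM in drought (log2 difference -6.61, standard error 0.79, adjusted p = 0.000507). Bradi4g20520, also of unknown function, had 0 to 4.70 CPM in control and 16.5, 20.5, 3.30, 465 and 16.03 CPM in drought. Its mean rested on drought replicate 4, and without that plant the log2 difference went from 6.02 (adjusted p = 0.0245) to 3.15 (adjusted p = 0.0807). The call was also lost without control replicate 1, 3 or 5. The jacalin-like lectin gene Bradi3g19730 showed the same plant far above the rest, with 56.5 CPM in drought replicate 4 against 1.63 to 8.22 in the other drought plants, and did not pass (adjusted p = 0.101). The leucine-rich repeat gene Bradi3g00920 was at 2.23 ± 1.37 CPM in control and 8.41 ± 4.38 in drought (adjusted p = 0.124).

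The zinc transporter gene Bradi1g53680 was lower in drought on average, with 239.8, 294, 143, 331 and 115 CPM in control and 146, 136, 105, 125 and 110 CPM in drought, but did not pass (log2 difference -0.85, standard error 0.27, adjusted p = 0.0573). The endopeptidase gene Bradi5g18277 had 107 to 511 CPM in control and 99.4 to 206 CPM in drought (log2 difference -0.78, standard error 0.39, adjusted p = 0.231). The controls spanned a wider range than the drought plants for both. The allene oxide cyclase gene Bradi1g15840, of jasmonate synthesis, was at 71.04 ± 10.98 CPM in control and 85.7 ± 38.8 in drought (adjusted p = 0.55), and the metallo-beta-lactamase gene Bradi3g45230 at 117 ± 58.4 and 126 ± 27.9 CPM (adjusted p = 0.887).

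Among all called genes without overlap whose normalized counts averaged 10 or more, the largest rises were those of Bradi4g40850 and of Bradi2g11567, which the sources do not annotate. Bradi2g11567 had no count in control and 19.4, 26.1, 1.88, 73.03 and 7.34 CPM in drought, 808-fold higher by the same assumed floor (adjusted p = 0.00406). The largest falls were those of Bradi1g43990, from 25.4, 1.78, 10.9, 1.87 and 18.1 CPM to 4 counts over the drought plants (adjusted p = 0.00116), and Bradi4g16083, from 20.6, 0.931, 6.54, 1.25 and 9.04 CPM to 7 counts (adjusted p = 0.00465). Control replicates 2 and 4 were the lowest control plants for both genes. Over the whole table, 21 genes that rose had no count in any control plant and 4 that fell had none in any drought plant.

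The plants of a group differed in how far they lay from the other group. PC1 of log2 CPM held 31.01% of the variance among F1 libraries. Control replicates 1 to 5 had scores of -115, -19.4, -65.7, -35.5 and -111, and drought replicates 1 to 5 had 58.4, 66.6, -0.9, 148 and 74.6. Drought replicate 3 was the lowest of the drought plants in 785 of the 1274 genes that rose (61.6%, and 20.9% of all genes tested) and the highest in 868 of the 1254 that fell (69.2%, and 23.6% of all). Drought replicate 4 was the highest drought plant in 560 of the genes that rose (44.0%, and 24.6% of all genes tested) and the lowest in 756 of those that fell (60.3%, and 33.6% of all). On the control side, replicate 1 was the lowest plant in 647 of the genes that rose (50.8%, and 21.9% of all) and the highest in 725 of those that fell (57.8%, and 23.3% of all). Control replicates 2 and 4 were the highest plants in 491 and 383 of the genes that rose (38.5% and 30.1%, and 25.7% and 21.1% of all). Since the same plants chose these genes, the numbers describe the calls and do not test them. Fitted within each group, the common biological coefficient of variation was 0.579 in control and 0.522 in drought.

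The same comparison in the accessions shared no library with that of the hybrids. With 3 drought plants each, 114 genes were called in Bd21 (0.504%) and 52 in Bd3-1 (0.23%). By direction, 69 genes rose (0.305%) and 45 fell (0.199%) in Bd21, and 41 rose (0.181%) and 11 fell (0.0486%) in Bd3-1. Of the Bd21 genes, 59 of 69 that rose also rose in the hybrids (85.5% of the Bd21 list and 4.63% of the F1 list) and 32 of 45 that fell also fell (71.11% and 2.55%). Of the Bd3-1 genes, 34 of 41 rose (82.9% and 2.67%) and 11 of 11 fell (100% and 0.877%). No gene called in an accession was called in the opposite direction in the hybrids. The Bd21 genes that rose had a median log2 difference of 1.77 in Bd21 and 2.27 in the hybrids, and the Bd3-1 genes that rose had 2.37 in Bd3-1 and 2.66 in the hybrids.

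Read from the hybrids, 2178 of the 2528 called genes had the same direction in both accessions, 1086 of those that rose and 1092 of those that fell. Over all genes tested, 48.5% had one direction in all 3 genotypes. The median log2 difference of the genes that rose was 1.16 in the hybrids, 0.48 in Bd21 and 0.66 in Bd3-1, but the genes were chosen by their change in the hybrids, which alone makes that value larger. Across all genes, the log2 differences of the hybrids had a Pearson correlation of 0.308 with those of Bd21 and 0.492 with those of Bd3-1. These values do not say which accession the hybrids resembled more. Bd21 had 3 control plants and Bd3-1 had 5, and their smallest control libraries held 8236476 and 17418646 counts. The study took 3 plants of each accession and treatment from its first experiment, so some Bd3-1 controls may share the experiment of the hybrids.

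**Figure D4:**
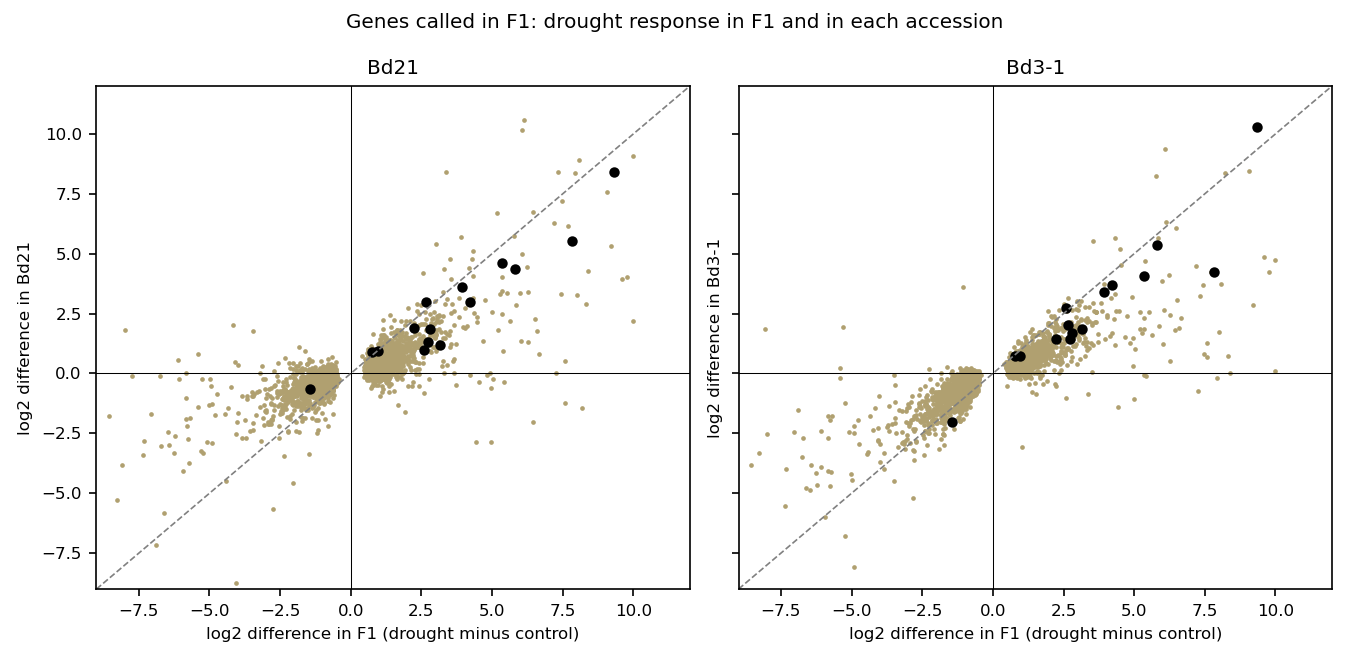
Log2 difference between drought and control in F1 hybrids (x axis) and in Bd21 or Bd3-1 (y axes) for the genes called in F1; black points are the ABA and dehydration genes and the dashed line marks equal change. Most points lie in the same-sign quadrants, nearer to 0 in the accessions than in the hybrids they were chosen on; 2 genes (Bd21) and 3 genes (Bd3-1) lie outside the axes.

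Whether the drought response of the hybrids differed from the mean response of the accessions was tested directly. At an adjusted p under 0.05, 0 of 22629 genes passed (0%) with edgeR, 1682 had an unadjusted p under 0.05 (7.43%), and DESeq2 called 19. For the 7 ABA genes, the median log2 difference was 3.17 in the hybrids, 1.90 in Bd21 and 1.85 in Bd3-1, and the median of hybrid minus accessions was 0.87, beside 0.03 over all genes. The log2 difference of the ASR5 ortholog Bradi4g24650 was 2.73 in the hybrids, 1.32 in Bd21 (adjusted p = 0.0358) and 1.45 in Bd3-1, where it did not pass (adjusted p = 0.105; hybrid minus accessions 1.34, standard error 0.36, adjusted p = 0.505). The HAB1 ortholog Bradi2g18510 had 2.80 in the hybrids, 1.85 in Bd21 (adjusted p = 0.0121) and 1.68 in Bd3-1, where it did not pass (adjusted p = 0.144; hybrid minus accessions 1.04, standard error 0.40, adjusted p = 0.598). The zinc transporter gene Bradi1g53680 had -0.85 in the hybrids, 0.91 in Bd21 and 0.56 in Bd3-1 (difference -1.59, standard error 0.44, adjusted p = 0.505), and the endopeptidase gene Bradi5g18277 had -0.78, 1.56 and 0.91 (difference -2.02, standard error 0.60, adjusted p = 0.526). Some of these differences are sizeable beside their standard errors, and none passed after adjustment.

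Each plant carries both alleles in the same cells, so their responses can be compared within a library. Alleles could be distinguished in 3403 genes, by a criterion on allele counts applied here to each accession library. It was modelled on that of the study, whose own set is larger and was not used here. Tested alone, the Bd21 allele rose in 112 and fell in 97 genes and the Bd3-1 allele rose in 95 and fell in 87. Among distinguishable genes called by their total counts, both alleles moved in the same direction in 272 of 276 that rose and 274 of 274 that fell, whereas both alleles agreed in sign in 71.3% of all distinguishable genes. Genes were chosen here by the sum of the same alleles, so this is a description. The allele by treatment interaction passed at an adjusted p under 0.1 in 0 genes (0%, edgeR with the plant as a block). The criterion asked for counts in every accession library, so genes silent in control could not enter. The NCED2 ortholog, the LEA gene Bradi1g51770, the dehydrin gene Bradi1g37410 and the leucine-rich repeat gene Bradi3g00920 were not in the set. For Bradi3g00920, the study reports cis-regulation specifically under drought, which was not tested here. At an unadjusted p under 0.1, 320 genes passed (9.4%), 142 at an unadjusted p under 0.05 (4.17%), and DESeq2 called 13 genes after adjustment. The median difference between the alleles' responses was -0.02 in genes that rose and -0.00 in genes that fell. Single genes scattered around these medians, and the responses differed by more than 1 on the log2 scale in 43 of the 276 and 32 of the 274.

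Of the 56 genes named by the study, 14 had distinguishable alleles. For the ATHB-7 ortholog Bradi3g50220, the Bd21 allele went from 10.8 ± 1.38 to 220 ± 42.3 CPM and the Bd3-1 allele from 8.38 ± 8.24 to 134 ± 25.1 CPM (SD, n = 5 plants each). The alleles' responses differed by 0.04 on the log2 scale (Bd3-1 minus Bd21, standard error 0.42, adjusted p = 0.999). Both alleles of this transcription factor gene were thus far higher in drought, and the approximate 95% interval of the difference, -0.77 to 0.86, was wide. For the ASR5 ortholog Bradi4g24650, the Bd21 allele went from 126 ± 36.5 to 979 ± 303 CPM and the Bd3-1 allele from 102 ± 42.1 to 536 ± 169 CPM. The difference was -0.54 (standard error 0.21, interval -0.94 to -0.13, adjusted p = 0.97). The wax gene Bradi2g23740 fell on both alleles, from 219 ± 67.4 to 78.3 ± 25.2 CPM on the Bd21 allele and from 118 ± 46.2 to 45.6 ± 13.4 CPM on the Bd3-1 allele (difference 0.16, standard error 0.18, interval -0.19 to 0.51, adjusted p = 0.97). For the CYP707A1 ortholog Bradi3g52660, the log2 difference was 1.12 on the Bd21 allele (adjusted p = 0.0198) and 0.83 on the Bd3-1 allele (adjusted p = 0.104), and the alleles differed by -0.30 (standard error 0.32, interval -0.92 to 0.32, adjusted p = 0.97). Passing on one allele and not on the other therefore does not show a difference between them, and the interval does not exclude one.

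**Figure D5:**
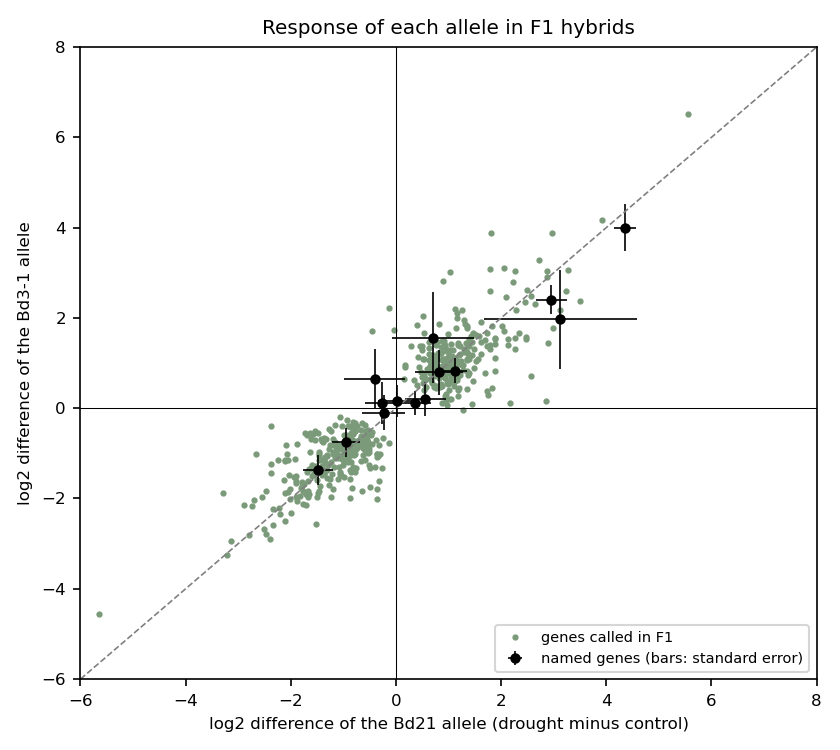
Log2 difference between drought and control of the Bd21 allele (x axis) and of the Bd3-1 allele (y axis) within F1 plants, for the distinguishable genes called by total counts (green) and the 14 named genes (black, with standard errors); the dashed line marks equal response. Points scatter about the line (Pearson correlation 0.63 among genes that rose and 0.67 among those that fell). Named genes reach from the falling wax gene to the ATHB-7 ortholog at 4.35 and 3.997, and Bradi1g55600 has opposite signs (-0.40 and 0.65).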

How the data were processed

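The authors trimmed the reads, called Bd3-1 variants against the Bd21 reference and aligned the reads of all plants with bowtie to transcripts of both accessions. From these alignments emase derived an estimated count (expected count) per allele and gene, which the authors deposited unnormalized for 32439 genes, in 2 columns for each of 24 libraries. Because emase splits reads that fit more than 1 gene, near-identical copies have uncertain counts. The reference table of 31335 genes held 0 of the identifiers, so roles are those the study's text gives and no sequences are shown.

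Both allele counts were added and rounded to whole numbers. The study's filter (a count above 0 in over 10 libraries) left 22629 genes. Drought and control were compared in the 10 F1 libraries with edgeR 4.0.16 (quasi-likelihood F-test, TMM) in R 4.3.3 and Benjamini-Hochberg adjustment at 0.05. Standard errors are the log2 difference divided by the square root of F. Intervals of allele differences reach 1.96 standard errors to each side, the 95% value of the normal distribution. They are approximate and narrower than the F-test would give. The F1 response was compared with the mean accession response in 1 fit over all libraries. Allele-distinguishable genes had more than 1 count of the own allele and under 20% of the opposing allele in each of 14 accession libraries, and the allele test used 0.1. Replicates are separate plants by the labels. Alternatives were DESeq2 1.42.0, other scales and filters, a fit over all libraries, a replicate block and fits without 1 library. On simulated data for the F1 comparison, with 200 of 22629 genes changed, 6% were recovered at a log2 change of 1, 58% at 2 and 74.5% at 3. Far fewer genes changed there than the 2528 called in the F1 libraries, which makes the adjusted cutoff stricter. These shares therefore do not measure recovery in the F1 libraries. For the test of F1 against the accessions, 66.5% of 200 among 22629 genes were recovered at 3. For the allele test, 53% of 200 among 3403 genes were recovered at 2.

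Named genes are the 56 that the study's text names with an annotation, plus at most 2 rises and 2 falls with the largest change among called genes without overlap whose normalized counts averaged 10 or more. Module lists come from the study's module table, 2 of them held in part. Members and lists were chosen with earlier results of these data known.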

Additional observations from a re-analysis of the deposited data

Results flagged for a closer look

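Levels of single plants were compared with the rest of their group for 59 named genes, and 26 of 118 groups had an end plant whose gap to the next was large by Dixon's 95% criterion for 5 samples. Chance gives about 1 in 20, and genes that move together are not independent.

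Drought replicate 4 stood apart most often. It was the highest drought plant for Bradi5g15830 (186 CPM, next 33.7), Bradi5g19250 (10.4, next 0.963), Bradi4g31380 (248, next 64.6), Bradi2g11676 (109, next 44.4), Bradi2g52260 (136, next 45.5), Bradi1g15840 (153, next 77.4), Bradi4g20520 (465, next 20.5) and Bradi3g19730 (56.5, next 8.22). It was the lowest for Bradi3g39800 (124 CPM, next 318).

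Among control plants, replicate 2 was the highest for Bradi3g50220 (35.2 CPM, next 15.6), Bradi1g51770 (3.98, next 1.13), Bradi1g44480 (7.40, next 2.93), Bradi2g56700 (11.8, next 2.84), Bradi1g18650 (117, next 46.5) and Bradi4g15010 (355, next 166), and the lowest for Bradi3g44990 (42.4, next 67.7). Control replicate 4 was the highest for Bradi1g13760 (8.97 CPM, next 2.28), Bradi3g52660 (159, next 121) and Bradi3g59380 (1.59, next 0.451). Control replicate 1 was the highest for Bradi2g11676 (31.8 CPM, next 20.0) and Bradi4g31257 (218, next 116).

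Of the remaining drought plants, replicate 2 was the highest for Bradi2g15940 (14.6 CPM, next 9.03), replicate 3 for Bradi3g16515 (35.8, next 10.7) and replicate 1 for Bradi1g43990 (0.11, next 0) and Bradi4g16083 (0.193, next 0), while replicate 5 was the lowest for Bradi5g18277 (99.4, next 176).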

How the results depend on the processing

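The number of genes called in F1 was 3939 with DESeq2 (2049 falls) and 2389 rises and 633 falls with total counts as the scale, an alternative chosen after seeing the data. Without 1 library it ranged from 1017 to 3303 (536 to 1550 rises and 481 to 1753 falls). It stayed within 1.5 times the main count with RLE factors (2583), both other filters, the fit over all 24 libraries (3370) and the replicate block (2448). The test of F1 against the accessions gave 0 to 1 gene without 1 library (1 without Bd21 drought replicate 1) and 19 with DESeq2. The allele test gave 0 to 2 genes (2 without control replicate 2, 1 without control replicate 4 and 1 without drought replicate 3) and 13 with DESeq2. The number of genes with the same direction in both accessions (2178) was 2212 with RLE factors and 2193 with the stricter filter, the only alternatives run for it.

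Of 29 named genes called, 24 were called in every alternative, 5 lost the call in some and none changed direction. Of 30 not called, 12 passed in some alternative and 8 changed direction in some. With total counts as the scale, the log2 difference became 0.18 for Bradi1g18650, 0.19 for Bradi3g44990, 0.20 for Bradi3g59380 and 0.12 for Bradi2g10880. With the replicate block it became 0.069 for Bradi1g18650 and 0.91 for Bradi3g59380. Without 1 library it ranged from -0.25 to 0.43 for Bradi1g18650, -0.39 to 0.018 for Bradi3g44990, -0.97 to 3.36 for Bradi5g19250, -0.22 to 0.62 for Bradi1g55600, -0.88 to 1.77 for Bradi3g59380, -0.052 to 0.39 for Bradi1g15840 and -0.055 to 0.37 for Bradi3g45230. The cause was not tested.

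Replicate numbers are not said to pair plants. Deviations of same-numbered plants correlated between -0.03 and 0.12, and 1 of 5 control plants correlated best with its own number. The replicate block called 1154 rises and 1294 falls, 2035 of them among the main calls. Intervals here rest on 5 plants a group, and genes with few counts in a group have folds of low precision.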
